A study of Mus musculus with 12 samples.

Results

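Whole lungs of E15.5 mouse embryos that lacked Mek2 and kept a Mek1 allele in their mesenchyme were compared with control lungs across all genes detected on the arrays. The samples titled Mek1+/flox;Mek2-/-;Dermo1+/Cre (4 arrays, called here 1 Mek1 allele) were set against the samples titled Dermo1+/Cre (4 arrays, controls), which is 8 of the 12 arrays of the series. The other 4 arrays, from Mek1flox/flox;Mek2-/-;Dermo1+/Cre lungs (double mutants), entered the same fit and are given beside the results. Every embryo carried the Dermo1+/Cre driver, in which Cre recombinase is made from the Twist2 (Dermo1) locus in embryonic mesenchyme, and every sample was labelled with the 129/Sv background. Mek2 was inactivated in all cells of both mutant groups, whereas Mek1 could be lost only where Cre had acted. Cells without Cre in the 1 Mek1 allele lungs, epithelium among them, should therefore hold both Mek1 alleles, and the whole-lung RNA mixes them with the recombined mesenchyme. The labels do not say whether a sample was 1 lung or a pool, so p-values measure the spread between these samples, which may be in part technical. In such bulk RNA, fewer cells of a type and less RNA per cell cannot be told apart.

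The kinases MEK1 and MEK2 (genes Map2k1 and Map2k2) receive the signal from RAF and pass it on by phosphorylating ERK. Growth factor receptors, among them the FGF receptors that drive lung branching, use this cascade. ERK then changes transcription through ETS factors and immediate early genes, and it induces its own inhibitors, such as the dual-specificity phosphatases and the Sprouty proteins. MEK1 and MEK2 overlap in function, and mice that lack Mek2 alone live and breed. The comparison therefore asks what the lung transcriptome looks like when Mek2 is gone and mesenchymal Mek1 is reduced but not lost.

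Of 25697 probes on the Illumina bead arrays, 11841 were detected, meaning that 4 or more of the 12 arrays gave a detection p below 0.01, and these stood for 8311 named genes. Between 10467 and 11878 probes were above background on an array. The upper quartile of raw intensity was highest on control replicates 2 and 3, at 390.1 and 388.3, and on the other 10 arrays it lay between 226.6 and 306.4. Y-linked Eif2s3y was high on 1 of 4 arrays in each of the groups compared. The number of arrays limits the precision. Levels below are log2 intensities after background correction and quantile normalization, given as mean ± SD with n = 4 a group, and changes are log2 differences from controls ± SE, with limma's p adjusted over all 8311 genes (threshold 0.05).

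Map2k2 was read first, because it checks the labels. It measured 11.64, 11.48, 11.60 and 11.66 on the 4 control arrays and 10.41, 10.76, 10.60 and 10.54 on the 4 arrays with 1 Mek1 allele. All mutant values lay below all control values, and the change was -1.02 ± 0.12 (limma adjusted p = 0.00209), a level 2.02-fold lower. A dimmer Map2k2 probe was detected on 4 of 4 control arrays and on 0 of 4 arrays with 1 Mek1 allele, with means of 5.86 and 5.10. The sources used here do not place these probes relative to the deleted part of the gene. The only Map2k1 probe was detected on 0 of 12 arrays, so loss of a Mek1 allele cannot be checked in these data. Twist2, whose locus carries the driver in all groups, measured 7.28 ± 0.26 in controls and 7.36 ± 0.20 with 1 Mek1 allele, a difference of 0.08 ± 0.15 (limma adjusted p = 0.842).

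The lungs with 1 Mek1 allele differed from controls in a short list of genes, led by rises in Hebp1 and Akr1c19 and falls in Itgb3bp and Cdkal1. Of the 8311 genes, 53 passed the threshold (0.638%), of which 25 were higher (0.301%) and 28 lower (0.337%). The share of calls that were higher was 47.2%, or 59.2% with upper-quartile scaling in place of quantile normalization. It was 73.3% without control replicate 2 or without control replicate 3, 75% without 1 Mek1 allele replicate 2 and 80% without both bright controls. All 53 had 4 values with 1 Mek1 allele wholly outside the 4 control values, a pattern that 824 genes showed (9.91%). Taking for 6 genes that were undetected in a whole group the bound given below, 40 of the 53 reached 1.5-fold and 10 reached 2-fold, of which 7 were higher and 3 lower. The median change over all genes was -0.01, with quartiles at -0.15 and 0.13. Changes ran from -2.15, in a gene that missed the threshold, to 2.87 in Hebp1. An unadjusted p under 0.05 was found for 1364 genes (16.4%).

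**Figure D1:**
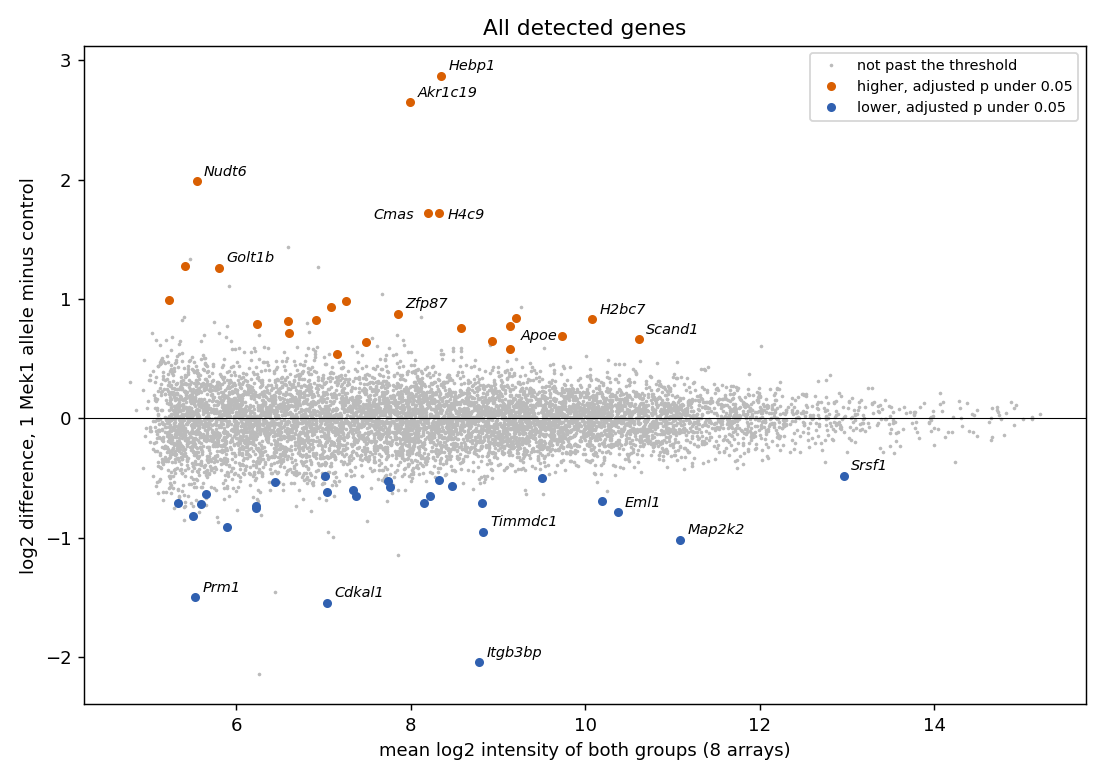
Log2 difference between 1 Mek1 allele and control (vertical) against the mean log2 intensity of the 8 arrays (horizontal) for the 8311 genes tested; orange and blue points are the 25 higher and 28 lower genes past the threshold. Most genes lie close to 0, and Hebp1, Akr1c19 and Itgb3bp stand at 2.87, 2.65 and -2.04.

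The number of calls depended on which arrays were in the fit. Leaving out control replicate 2 or control replicate 3 gave 15 calls each, control replicate 1 gave 23, control replicate 4 gave 24 and 1 Mek1 allele replicate 2 gave 20, against 38 to 60 when any other array was left out. Leaving out both bright controls left 5 genes, Hebp1, Akr1c19, H4c9, Zfp87 and Map2k2, and the part that array brightness has in the other calls was not tested beyond this and a fit with brightness as a covariate, which called 10 genes, 6 of them among the 53. Of the 53 genes, 12 passed under all 12 single omissions: Hebp1, Akr1c19, Nudt6, Cmas, H4c9, Zfp87, H2bc9, H2bc7, Scand1, Eml1, Map2k2 and Prm1. The other 41 missed the threshold under at least 1 omission, with adjusted p never above 0.143. All 53 kept their direction under every alternative run. Leaving out arrays could not have reversed it, since the 2 groups of values did not overlap in any of the 53.

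The largest rises were in Hebp1 and Akr1c19. Hebp1, which encodes a haem-binding protein, measured 7.38, 6.69, 6.73 and 6.88 in controls and 10.16, 9.62, 9.29 and 10.08 with 1 Mek1 allele. The groups were 1.92 log2 units apart at their nearest values, and the change was 2.87 ± 0.22 (limma adjusted p = 2.05e-05). Akr1c19, an aldo-keto reductase of the family that reduces steroids and other carbonyls, measured 6.83, 6.48, 6.50 and 6.87 in controls and 9.38, 9.31, 9.48 and 9.09 with 1 Mek1 allele. Its groups were 2.22 apart at their nearest values, with a change of 2.65 ± 0.13 (limma adjusted p = 1.28e-07). In the list of aldo-keto reductase and detoxification genes 1 of 17 measured members rose, Akr1c19 itself, against 0.301% of all genes. The list median was 0.05, and Akr1b8 and Akr1e1 changed by -0.41 and 0.26. In the haem and iron list 1 of 16 rose, Hebp1, with a median of 0.05. The next members by size were the haemoglobin scavenger Hp at 0.45 (limma adjusted p = 0.407) and the iron exporter Slc40a1 at -0.35 (limma adjusted p = 0.148). The lists were chosen with earlier results of these data known, and few other members would be called at that share. Such counts, here and below, are therefore not results about a list. Ireb2, an iron regulator that is not in the haem and iron list, fell as well.

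Cmas, the enzyme that activates sialic acid for transfer onto glycans, measured 7.21, 7.63, 7.48 and 7.02 in controls and 9.17, 9.47, 8.28 and 9.29 with 1 Mek1 allele. All mutant values were above all controls, with replicate 3 the lowest of the mutants, and the change was 1.72 ± 0.24 (limma adjusted p = 0.00654). Of 12 measured sialic acid and glycosylation genes it was the 1 that rose, against 0.301% of all genes, and their median was -0.01. Nudt6, a nudix hydrolase gene that overlaps Fgf2 on the opposite strand, was not detected on any control array and measured 6.09, 7.20, 6.75 and 6.11 with 1 Mek1 allele. It was at least 2.31-fold higher there (limma adjusted p = 0.00248). This bound sets the mutant mean against, on each control array, the lowest signal of any probe above background or the probe's own signal if higher. Here and below, the p-value beside a bound tests the fitted difference and not the bound. Golt1b, a Golgi transport protein, was also undetected in controls and measured 6.32, 6.60, 5.97 and 6.85 with 1 Mek1 allele, at least 2.15-fold higher (limma adjusted p = 0.0191). Gpr27, an orphan G protein-coupled receptor, was detected on 0 of 4 control and 3 of 4 mutant arrays and was at least 1.32-fold higher (limma adjusted p = 0.0228). A second Gpr27 probe was likewise detected on 0 control and 4 mutant arrays. Ero1b, which oxidises disulfide bonds in the endoplasmic reticulum, was detected on 1 of 4 controls, where values ran from 4.31 to 5.25, and on 4 of 4 mutant arrays, from 5.75 to 6.33 (limma adjusted p = 0.0184). Ero1b was the 1 of 19 measured members of the unfolded protein and amino acid stress list to rise, against the same 0.301%, and the list median was 0.004.

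Smaller rises followed. Ooep, known as an oocyte protein of the subcortical maternal complex, measured 7.09, 6.73, 6.70 and 6.58 in controls and 8.38, 7.54, 7.45 and 7.64 with 1 Mek1 allele, a change of 0.98 ± 0.18 (limma adjusted p = 0.0307). The groups were 0.37 apart, and replicate 1 of the mutants was the highest. The zinc finger genes Zfp87 and Zfp748 rose by 0.88 ± 0.10 (limma adjusted p = 0.00134) and 0.72 ± 0.11 (limma adjusted p = 0.0121). Zfp87 had tight groups, 7.31 to 7.52 in controls and 8.19 to 8.42 with 1 Mek1 allele, but a second Zfp87 probe that passed the filter gave -0.24, so the gene's direction differs between its probes. Cd109, a membrane protein that binds TGF-beta, rose by 0.83 ± 0.17, where a second probe gave 0.28. Dok1, an adaptor that restrains tyrosine kinase signalling towards RAS, rose by 0.82 ± 0.15, and its second probe gave 0.56. Taf6l, a subunit of histone acetyltransferase complexes, rose by 0.79 ± 0.14. Apoe, the lipid carrier, measured 8.72, 8.95, 8.58 and 8.75 in controls and 9.24, 9.97, 9.74 and 9.15 with 1 Mek1 allele, a change of 0.78 ± 0.16 (limma adjusted p = 0.0496) in groups 0.20 apart. Of these, Apoe and Cd109 passed in 2 of 12 single omissions and Ooep in 8. Tceanc2, at 0.94 ± 0.19, passed in 1 of 12. The remaining rises were Scand1 at 0.66 ± 0.10, the annexin Anxa4, the Rab GTPase activator Tbc1d2, the immunoglobulin superfamily gene Igsf3 and the endothelial receptor Gpr182, between 0.53 and 0.66.

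**Figure D2:**
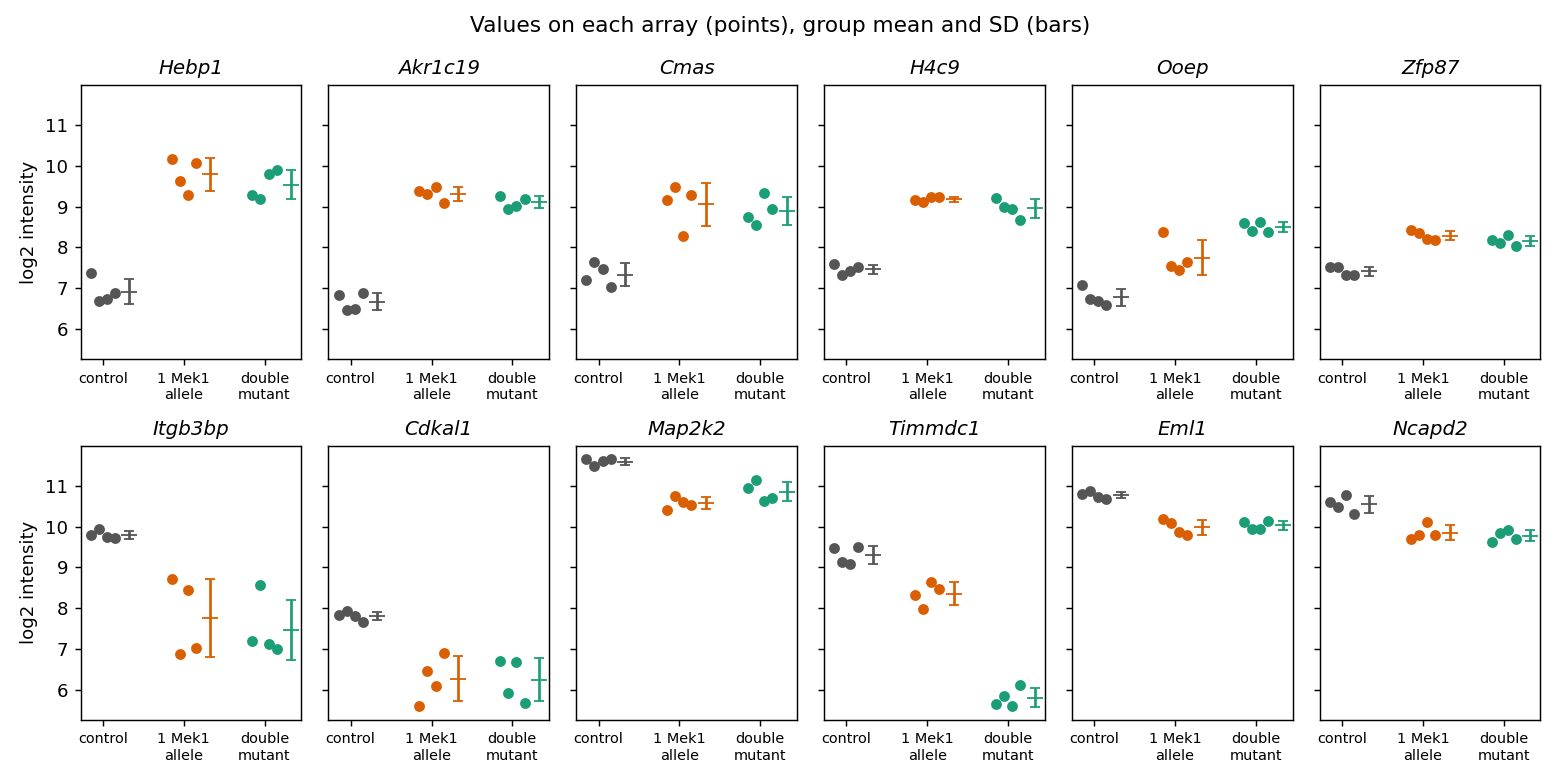
Log2 intensity on each array (points, 4 a group) with the group mean and SD beside them, for 6 genes that rose (upper row) and 6 that fell (lower row) with 1 Mek1 allele. In all 12 genes the 4 values with 1 Mek1 allele lie outside the 4 control values; Itgb3bp spreads from 6.86 to 8.72 among the mutants, and Timmdc1 is lower still in the double mutants, at 5.60 to 6.11.

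Core histone genes made up 5 of the 25 rises. They encode the replication-dependent histones, whose messages end without a poly(A) tail and accumulate in S phase, and they lie in clusters, the largest of them on chromosome 13 in the mouse. H4c11 also rose and lies on chromosome 13, but its promoter is not printed. The promoters shown are those of H2bc7, H2bc9, H2bc11 and H4c9, the other histone genes that rose, all on chromosome 13. Each is the RefSeq sequence in build GRCm38.p6, 300 bases that span the annotated start, 5′ to 3′ along the gene, and the capitals mark CCAAT, searched on both strands and so also read as ATTGG. The regions are chr13:23574158-23574457 (minus strand) for H2bc7, chr13:23543395-23543694 (minus strand) for H2bc9, chr13:22042948-22043247 (plus strand) for H2bc11 and chr13:22041313-22041612 (minus strand) for H4c9.
H2bc7: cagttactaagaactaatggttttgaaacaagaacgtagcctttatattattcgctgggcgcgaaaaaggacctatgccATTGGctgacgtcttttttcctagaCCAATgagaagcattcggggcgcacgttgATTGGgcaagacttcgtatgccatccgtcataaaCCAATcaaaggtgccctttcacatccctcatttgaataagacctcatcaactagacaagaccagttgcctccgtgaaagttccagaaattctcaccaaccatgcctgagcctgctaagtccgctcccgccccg
H2bc9: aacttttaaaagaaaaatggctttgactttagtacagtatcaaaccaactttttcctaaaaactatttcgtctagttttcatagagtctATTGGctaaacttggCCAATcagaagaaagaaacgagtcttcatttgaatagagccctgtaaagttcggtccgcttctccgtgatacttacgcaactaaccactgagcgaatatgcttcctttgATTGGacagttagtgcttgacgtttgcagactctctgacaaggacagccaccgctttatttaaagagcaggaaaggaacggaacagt
H2bc11: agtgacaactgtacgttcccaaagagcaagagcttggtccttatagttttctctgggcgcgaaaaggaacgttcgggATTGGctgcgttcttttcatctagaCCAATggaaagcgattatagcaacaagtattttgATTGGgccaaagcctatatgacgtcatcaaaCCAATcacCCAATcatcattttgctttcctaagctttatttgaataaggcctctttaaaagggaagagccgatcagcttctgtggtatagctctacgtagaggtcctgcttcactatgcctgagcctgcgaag
H4c9: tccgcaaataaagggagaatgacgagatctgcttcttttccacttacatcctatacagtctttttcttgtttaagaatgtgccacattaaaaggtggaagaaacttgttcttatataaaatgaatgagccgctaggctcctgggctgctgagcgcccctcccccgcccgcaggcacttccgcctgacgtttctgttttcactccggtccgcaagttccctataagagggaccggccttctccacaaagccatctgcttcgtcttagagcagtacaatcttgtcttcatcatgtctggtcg

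CCAAT occurred 4 times in the H2bc7 promoter, 3 times in H2bc9 and 5 times in H2bc11, and 0 times in H4c9 or in H4c11, the fifth histone gene that rose. Of 27025 promoters of this length, 37.9% held it at least once and 3.56% at least 3 times. Of the 38 measured histone genes with a promoter in the table, 31 held it and 21 held it at least 3 times. These are matches of letters, and no factor was measured.

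H4c9 measured 7.59, 7.33, 7.42 and 7.52 in controls and 9.16, 9.11, 9.22 and 9.24 with 1 Mek1 allele, a change of 1.72 ± 0.11 (limma adjusted p = 4.45e-06). Both groups were narrow and lay 1.52 apart. The H2B gene H2bc9 measured 8.89, 8.86, 8.46 and 8.92 against 9.48, 9.69, 9.61 and 9.72, and rose by 0.84 ± 0.13 (limma adjusted p = 0.0104). H2bc7 measured 9.85, 9.56, 9.46 and 9.77 against 10.35, 10.57, 10.56 and 10.49, and rose by 0.83 ± 0.11 (limma adjusted p = 0.00548). Neither H2B gene had overlapping groups. H4c11 and H2bc11 rose by 0.76 ± 0.13 and 0.69 ± 0.12 (limma adjusted p = 0.021 for both), each in 8 of 12 single omissions. A rule on gene symbols, added after values had been seen, took in all 41 measured histone cluster genes: 5 were past the threshold, all higher (0.301% of all genes were called higher), 36 had positive changes, and the median was 0.26, where all genes had -0.01 and 47.9% positive. The shorter histone cluster list, 1 of the 44 lists, had 1 of 11 measured members past the threshold, H4c9, and a median of 0.20, or 0.14 in double mutants. By class the median was 0.51 for 10 H2B genes, 0.48 for 9 H4, 0.33 for 9 H3, 0.23 for 2 H1 and 0.13 for 11 H2A genes. H2bc6 lay lower with 1 Mek1 allele, at -0.74 without passing (limma adjusted p = 0.0951). In double mutants, against the same controls, the median of the 41 was 0.04, and H4c9, H2bc7, H2bc9 and H2bc11 stood at 1.49, 0.63, 0.58 and 0.47, past the threshold there, with H4c11 at 0.42, which missed it (limma adjusted p = 0.108). Also past the threshold in double mutants were H3c7, higher at 0.99 (limma adjusted p = 0.00965), and H2bc6, lower at -0.80 (limma adjusted p = 0.0455). These histone genes are near-identical copies, so which of them a probe reports is uncertain, and their changes are not independent of each other.

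Among genes past the threshold and detected in both groups, the largest falls were in Itgb3bp, Cdkal1, Map2k2 and Timmdc1. Itgb3bp, which encodes the centromere protein CENP-R, measured 9.79, 9.94, 9.75 and 9.73 in controls and 8.72, 6.86, 8.45 and 7.01 with 1 Mek1 allele. The mutants were all below the controls but widely spread, with replicates 2 and 4 the lowest and 1 and 3 nearer the controls. The change was -2.04 ± 0.41 (limma adjusted p = 0.0464), and it passed in 3 of 12 single omissions. In the double mutants the values were 7.19, 8.56, 7.13 and 6.99, again with an array apart from the rest. Of 14 measured centromere and kinetochore genes Itgb3bp was the 1 that fell, against 0.337% of all genes. The list median was -0.10, and Cenpi and Cenph changed by -0.60 and 0.45 without passing.

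Cdkal1, which modifies a transfer RNA for lysine decoding, measured 7.84, 7.92, 7.81 and 7.67 in controls and 5.61, 6.46, 6.09 and 6.91 with 1 Mek1 allele, a change of -1.54 ± 0.27 (limma adjusted p = 0.0214), past the threshold in 6 of 12 single omissions. The mutants were more spread than the controls but stayed 0.77 below them. Prm1, a protamine known for packing sperm DNA, measured 5.85, 6.83, 6.12 and 6.32 in controls and was detected on none of the mutant arrays, at least 1.76-fold lower (limma adjusted p = 0.00663). Timmdc1, an assembly factor of mitochondrial complex I, measured 9.47, 9.14, 9.09 and 9.51 in controls and 8.32, 7.97, 8.64 and 8.48 with 1 Mek1 allele, a change of -0.95 ± 0.16 (limma adjusted p = 0.021). It passed in 8 of 12 single omissions, the adjusted p being highest, 0.0595, without control replicate 4. Of 38 measured complex I genes Timmdc1 was the 1 that fell, against 0.337% of all genes, and their median was 0.02.

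Eml1, a microtubule-associated protein, measured 10.80, 10.86, 10.72 and 10.68 in controls and 10.17, 10.08, 9.87 and 9.79 with 1 Mek1 allele, and fell by 0.79 ± 0.10 (limma adjusted p = 0.00464). Both groups were narrow, and Eml1 passed under every single omission. Agtr1a, the angiotensin II receptor, measured 5.86, 6.13, 5.79 and 5.87 in controls and was detected on none of the arrays with 1 Mek1 allele, at least 1.36-fold lower (limma adjusted p = 0.0273). Nox4, an NADPH oxidase that makes hydrogen peroxide, fell by 0.73 ± 0.14 (limma adjusted p = 0.0357), from 6.35 to 6.76 in controls to 5.59 to 6.18. Zfpm2, the GATA cofactor also called FOG2, fell by 0.65 ± 0.12 (limma adjusted p = 0.0337). Rps6ka5, which encodes MSK1, a nuclear kinase that ERK and p38 activate, was detected on 4 of 4 control and 2 of 4 mutant arrays and fell by 0.64 ± 0.12 (limma adjusted p = 0.0365), in 2 of 12 single omissions. Fnip1, a partner of folliculin in AMPK and mTOR signalling, fell by 0.65 ± 0.11 (limma adjusted p = 0.0184), with 8.28 to 8.78 in controls and 7.81 to 7.97 in mutants, and its second probe gave -0.39.

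Srsf1, a splicing factor and the brightest of the 53 genes, measured 13.09, 13.31, 13.19 and 13.25 in controls and 12.63, 12.76, 12.76 and 12.76 with 1 Mek1 allele. It fell by 0.48 ± 0.08 (limma adjusted p = 0.0228), and its second probe gave -0.44. Mtf2, a Polycomb-like partner of the histone methyltransferase PRC2, fell by 0.52 ± 0.11, in 1 of 12 single omissions. Ireb2, the iron regulatory protein, fell by 0.48 ± 0.10. Fgf13, an intracellular FGF homologue that binds no FGF receptor in the usual way, fell by 0.53 ± 0.10 (limma adjusted p = 0.0357). Abca9 was detected on 2 of 4 mutant arrays and gave -0.91 ± 0.19, but its other probes gave -0.17 and -0.23. Efcab1, Pcnx4 and the clustered protocadherin Pcdhb7 were detected on 1, 3 and 0 of 4 mutant arrays, and Pcdhb7 was at least 1.16-fold lower (limma adjusted p = 0.0372). Smaller falls, between -0.62 and -0.50, were those of Lipo3, Zfp715, Gpcpd1, the glycosyltransferase B3gnt5, Ccdc181 and the basement membrane gene Tinag. Of the 53 genes, 32 had 1 probe on the array. For 11 genes, 13 further probes passed the filter, of which 12 moved the same way, Zfp87 being the exception in direction.

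Ncapd2, a subunit of the condensin complex that compacts mitotic chromosomes, measured 10.60, 10.48, 10.78 and 10.30 in controls and 9.70, 9.79, 10.12 and 9.79 with 1 Mek1 allele. It fell by 0.69 ± 0.13 (limma adjusted p = 0.0272). Both further Ncapd2 probes were also lower, at -0.66 and -0.63. Esco2, which is in no list and acetylates cohesin during S phase, measured 8.30, 8.79, 8.48 and 8.45 against 7.76, 7.68, 7.92 and 7.83, and fell by 0.71 ± 0.13 (limma adjusted p = 0.0257). Neither gene had overlapping groups, and they passed in 6 and 7 of 12 single omissions. In the mitosis list 1 of 13 measured members fell, Ncapd2, against 0.337% of all genes, 12 of 13 had negative changes and the median was -0.13. The next members by size were the kinase Cdk1 at -0.35 (limma adjusted p = 0.215) and the spindle protein Nusap1 at -0.22 (limma adjusted p = 0.349). The summed linear level of the list ran from 22333 to 22980 on control arrays and from 19873 to 21338 with 1 Mek1 allele, without overlap. Ncapd2 is part of this sum, so the sum is not separate from its call. Separate groups were found for 9.91% of single genes, and the sums of the Hedgehog and airway cartilage lists did not overlap either. Of 21 measured DNA replication and S phase genes 0 passed, 14 had negative changes and the median was -0.10. Their sums also did not overlap, 32400 to 35373 against 29884 to 31816, but without the 2 bright controls the list median minus that of all genes was -0.004, against -0.09 with all arrays. The histone genes, which also belong to S phase, had the opposite sign.

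Genes that report ERK activity are given as values, since a count of 0 called in lists this short is near the share of all genes called (0.638%). Of 21 listed genes of ERK feedback and ETS output 12 were measured, and Spry1, Spry2, Spred2 and Dusp5 were among those not detected. Of the 12 measured genes 6 were positive and the median was -0.02, beside -0.01 for all genes. The largest difference was in Dusp6, the phosphatase that ERK induces and that acts on ERK. It measured 10.68 ± 0.07 in controls and 10.33 ± 0.08 with 1 Mek1 allele (-0.35 ± 0.09, limma adjusted p = 0.0857). Its groups did not overlap, as for 9.91% of all genes. Dusp4 and Ier3 followed at -0.31 and 0.27. In double mutants, against the same controls, Dusp6 stood at -0.08 (limma adjusted p = 0.671), Dusp4 at 0.02 and Ier3 at 0.92. Of 9 measured immediate early genes 0 passed, with a median of -0.02 and Junb, Klf2 and Egr1 at 0.53, 0.43 and -0.27. That list has 18 genes, and Fos, Fosb and Egr2 were among those not detected. The MAPK cascade list holds neither the targeted Map2k2 nor Rps6ka5, both of which fell. Among its 16 measured members 0 passed, and the median was -0.12. The p38 activator Map2k6 was the furthest, at 7.53 ± 0.27 in controls and 6.58 ± 0.61 with 1 Mek1 allele (-0.95 ± 0.32, limma adjusted p = 0.168), followed by the RAS inhibitor Rasa1 at -0.36 and the ERK-activated kinase Rps6ka3 at -0.32. Of 10 measured FGF ligands and receptors 0 passed, and Flrt3, Fgfr3 and Fgf7 stood at -0.42, 0.36 and -0.33. Since these lungs mix cells with different numbers of Mek1 alleles, the values describe the whole organ.

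**Figure D3:**
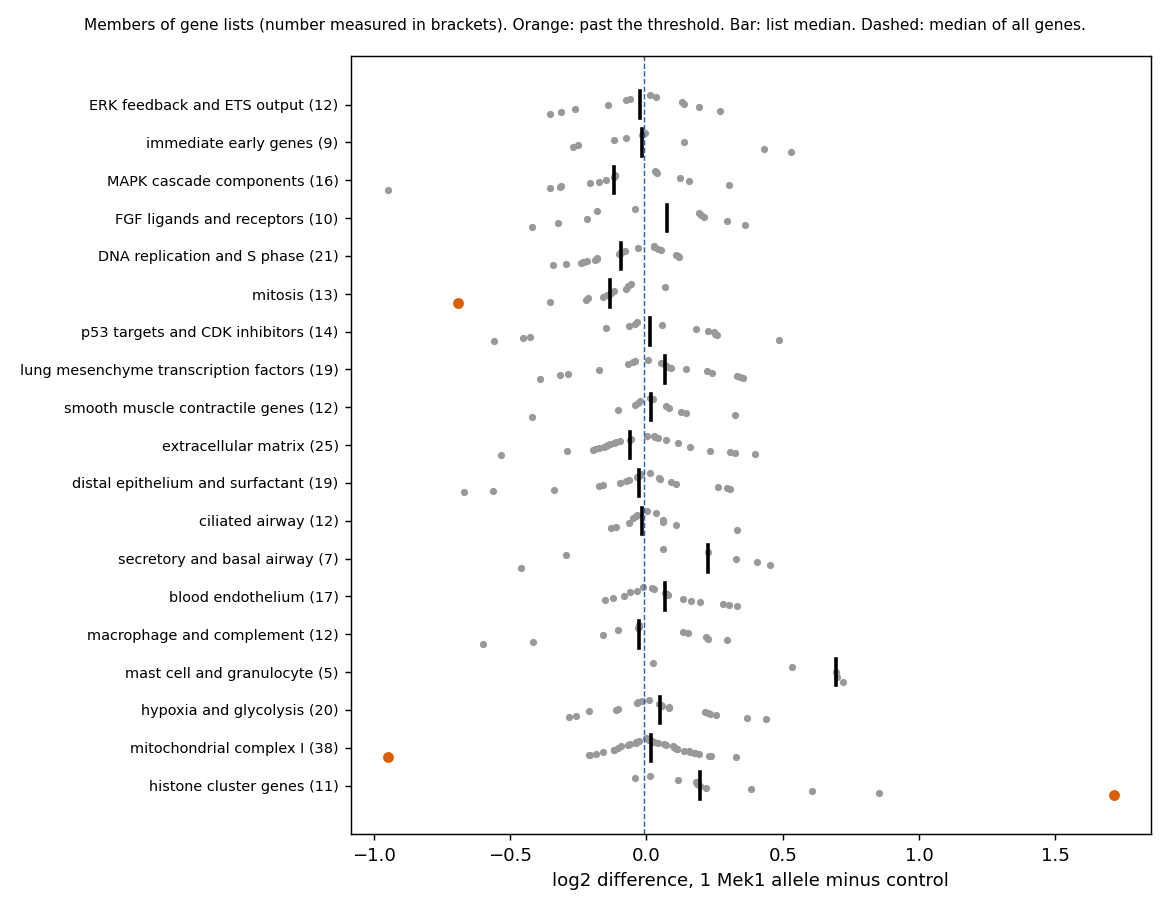
Log2 difference between 1 Mek1 allele and control (horizontal) for each measured member of 19 gene lists; orange points passed the threshold, black bars are list medians and the dashed line is the median of all genes at -0.01. Medians of most lists lie near that line, the mitosis list is at -0.13 and the mast cell and granulocyte list at 0.70.

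Across 44 gene lists of pathways, lung cell types and neighbouring tissues, 530 listed genes were measured and 8 of them were among the 53, while 45 of the 53 were in no list. At a share of 0.638% over all genes, a count of 0 called in a short list is near the background and is not a result about it. For mesenchyme, the tissue in which Mek1 was targeted, the medians were 0.07 for 19 measured transcription factors, 0.02 for 12 smooth muscle contractile genes, -0.06 for 25 extracellular matrix genes and 0.06 for 12 pericyte and lipofibroblast genes, and 0 members passed. Among members whose groups did not overlap, as for 9.91% of all genes, were Myocd, the cofactor that drives smooth muscle genes, at -0.42 ± 0.11 (limma adjusted p = 0.0857) and Lpl, lipoprotein lipase, at -0.45 ± 0.11 (limma adjusted p = 0.0751). Abcc9, an ion channel regulator of pericytes, lay at 0.65 with separate groups (limma adjusted p = 0.138), Pdgfra at -0.49 and Tcf21, a factor of lung mesenchyme, at 0.34. Abcc9 is also the nearest measured gene before Cmas on chromosome 6. The cartilage list kept 6 of 18 members after the filter, and its median was -0.08.

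Epithelium should keep both Mek1 alleles and lacks Mek2. Of its listed genes 0 passed, and the medians were -0.03 for 19 distal epithelium and surfactant genes, 0.08 for 9 alveolar type 1 genes, 0.01 for 16 general epithelial genes and -0.02 for 12 ciliated airway genes. Of 7 secretory and basal airway genes 5 were positive, with a median of 0.23. Minus that of all genes, the median of this list ran from 0.004 to 0.36 across the alternatives. Gsto1, a glutathione transferase, was the member with separate groups there, at 0.41 ± 0.09 (limma adjusted p = 0.0592). In the distal list Lamp3 and Elf5 lay at -0.67 (limma adjusted p = 0.164) and -0.56 (limma adjusted p = 0.126). Double mutants stood at 0.89 for the ciliated and 0.58 for the secretory median, against the same controls.

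Markers of other cells that a dissected lung can hold were compared in the same way. Of 17 measured blood endothelial genes 0 passed, with a median of 0.07, and of 12 macrophage genes 0 passed, with a median of -0.03 and Mrc1, F13a1 and C1qb at -0.60, -0.42 and 0.29. All 5 measured mast cell and granulocyte genes were positive, with a median of 0.70, S100a8 at 0.72, Cpa3 at 0.70 and Hdc at 0.70. None of the 5 passed, their summed levels overlapped (339 to 590 in controls and 493 to 983 with 1 Mek1 allele), and 11 of the 16 listed genes, among them Mcpt4, Kit and Mpo, were not detected. Across the alternatives this list median minus that of all genes ran from 0.16 to 0.81. In double mutants the list median was 0.07, against the same controls. The members differed there, with Hdc at 1.49 (limma adjusted p = 0.00693), Cpa3 at 0.51 and S100a8 at -0.66. The 5 measured skeletal muscle genes were all positive, with a median of 0.45, while Myog, Myod1 and Acta1 were not detected. Sums of the 5 did not overlap, at 347 to 500 against 509 to 622, a pattern that 9.91% of single genes showed. For cardiac muscle 4 of 5 were positive, with a median of 0.32. Minus the median of all genes, the list medians ran across the alternatives from 0.09 to 0.56 for skeletal and from 0.06 to 0.58 for cardiac muscle. Of 11 erythroid genes 6 were positive, with a median of 0.13. No gene of the liver and plasma list (14 genes) or of the thymus and T cell list (13 genes) passed the detection filter. The part of these cells in the results above was not tested.

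The genes past the threshold were unevenly placed in the genome. Chromosome 13 held 11 of the 53 (20.8%) and 3.50% of the genes tested, so that 3.78% of its 291 measured genes passed. Chromosome 6 held 8 (15.1%) and 5.16% of the genes tested, with 1.86% passing. Chromosomes 8 and 17, with 458 and 418 measured genes, held 0. Without the histone genes, chromosome 13 had 6 of 255 genes past the threshold (2.35%). With a variance prior that follows intensity, which called 224 genes, these chromosomes were again the highest, at 6.87% for chromosome 13 and 5.59% for chromosome 6. Without the 2 bright controls 3 of the 5 genes called lay on chromosome 13 and 1 on chromosome 6. Both fits reuse the same arrays, and these 5 genes are among the 53, so neither is a separate test of placement. The order also depended on the measure. By unadjusted p under 0.05, chromosome X had the highest share, above chromosome 13 at 22.68% and chromosome 6 at 21.68%.

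**Figure D4:**
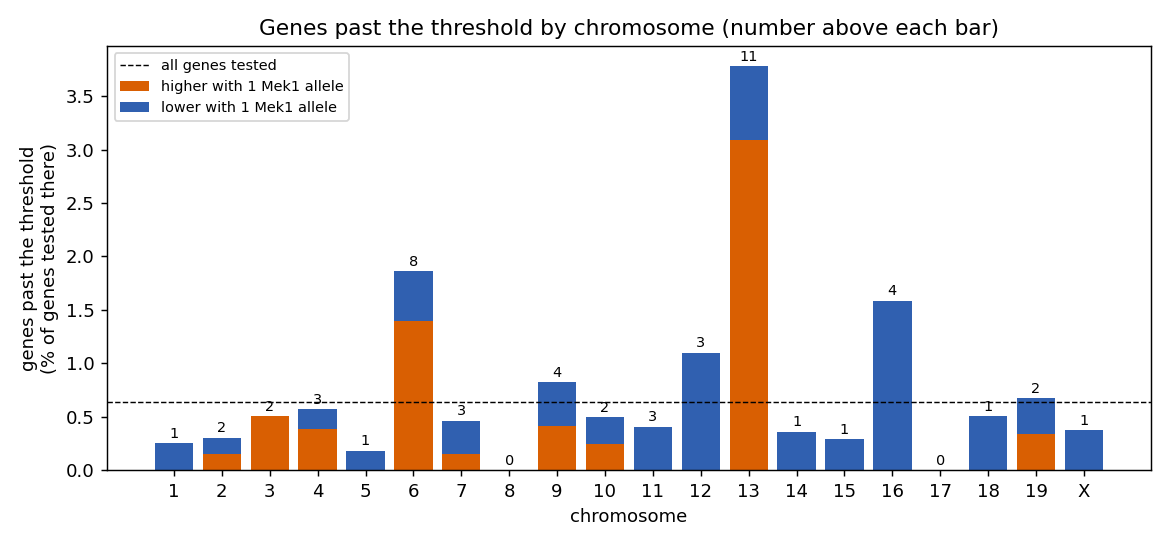
Percent of the measured genes of each chromosome that passed the threshold with 1 Mek1 allele (orange higher, blue lower), with the number of genes above each bar; the dashed line is 0.638%, the share over all genes. Chromosomes 13 and 6 are the highest bars, with 11 and 8 genes.

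In the order of RefSeq genes, calls also lay near each other. The 8 genes of chromosome 6, of which 6 were higher and 2 lower, lay at places 182 to 411 of its 429 measured genes, counted from its start, and 5 of them, rises and falls, at places 360 to 411, where Hebp1 is at 392 and Cmas at 411. On chromosome 13, of 291 measured genes, Akr1c19 was at place 5, Ero1b at 15, the histone genes H4c11, H4c9, H2bc11, H2bc9 and H2bc7 between 35 and 57, Cdkal1 at 75, Agtr1a at 78 and the zinc finger genes Zfp87 and Zfp748 at 193 and 194. Tinag, Ooep and Cd109 were at places 279, 285 and 289 of 486 on chromosome 9, which also carries Map2k1, and 221 measured genes precede Map2k1 there. Map2k2 is on chromosome 10, where Gpr182 was the other gene past the threshold, with 127 measured genes between them. Of the 20 nearest measured genes on either side of the 5 largest rises and 5 largest falls 0 passed. At a share of 0.638% over all genes this count is near the background and is not a result about neighbours. Gprc5a and Fam234b beside Hebp1 stood at 0.14 and -0.05, and Net1 and Akr1c12 beside Akr1c19 at -0.27 and 0.06. Thop1 and Zbtb7a beside Map2k2 stood at 0.09 and -0.13. The furthest was Pgm1, beside Itgb3bp, at 0.66 (limma adjusted p = 0.169). Next was Abcc9, beside Cmas, at 0.65 (limma adjusted p = 0.138). Whether position has a part in these changes was not tested.

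The double mutants, which lack Mek2 in the same way, show what these genes do when the second mesenchymal Mek1 allele is floxed too. Both mutant groups were set against the same 4 controls, so their values are given side by side. Against controls 251 genes passed in double mutants (3.02%), and between the mutant groups 45 passed (0.541%). With the 1 Mek1 allele value first and the double mutant value next, the change of Hebp1 was 2.87 and 2.62, that of Akr1c19 2.65 and 2.43, that of Cdkal1 -1.54 and -1.56 and that of Eml1 -0.79 and -0.73. Others lay further apart, such as Dok1 at 0.82 and 0.33, Fnip1 at -0.65 and -0.18 and Efcab1 at -0.72 and -0.08. In 42 of the 53 genes the double mutant change was the smaller in size. The 53 were chosen by their values on the arrays with 1 Mek1 allele, which also enter the direct test. Double mutant values nearer to controls are therefore not separate from that choice. Tested directly, 2 of the 53 genes differed between the mutant groups. Timmdc1 was lower in double mutants, at a difference of -2.55 ± 0.16 (limma adjusted p = 4.44e-06), with control, 1 Mek1 allele and double mutant means of 9.30, 8.35 and 5.80. The double mutants exceeded the lungs with 1 Mek1 allele, where Agtr1a was undetected, by a bound of at least 1.29-fold (limma adjusted p = 0.0463), and in them it measured 5.83 ± 0.31 beside a control mean of 5.91. The direct difference missed the threshold for Fnip1 (0.47 ± 0.11, limma adjusted p = 0.072) and for Efcab1 (0.64 ± 0.15, limma adjusted p = 0.0728), which was detected on 1 of 4 arrays with 1 Mek1 allele. For Ooep the changes were 0.98 and 1.73, a difference between the mutant groups of 0.75 ± 0.18 that missed the threshold (limma adjusted p = 0.0949).

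**Figure D5:**
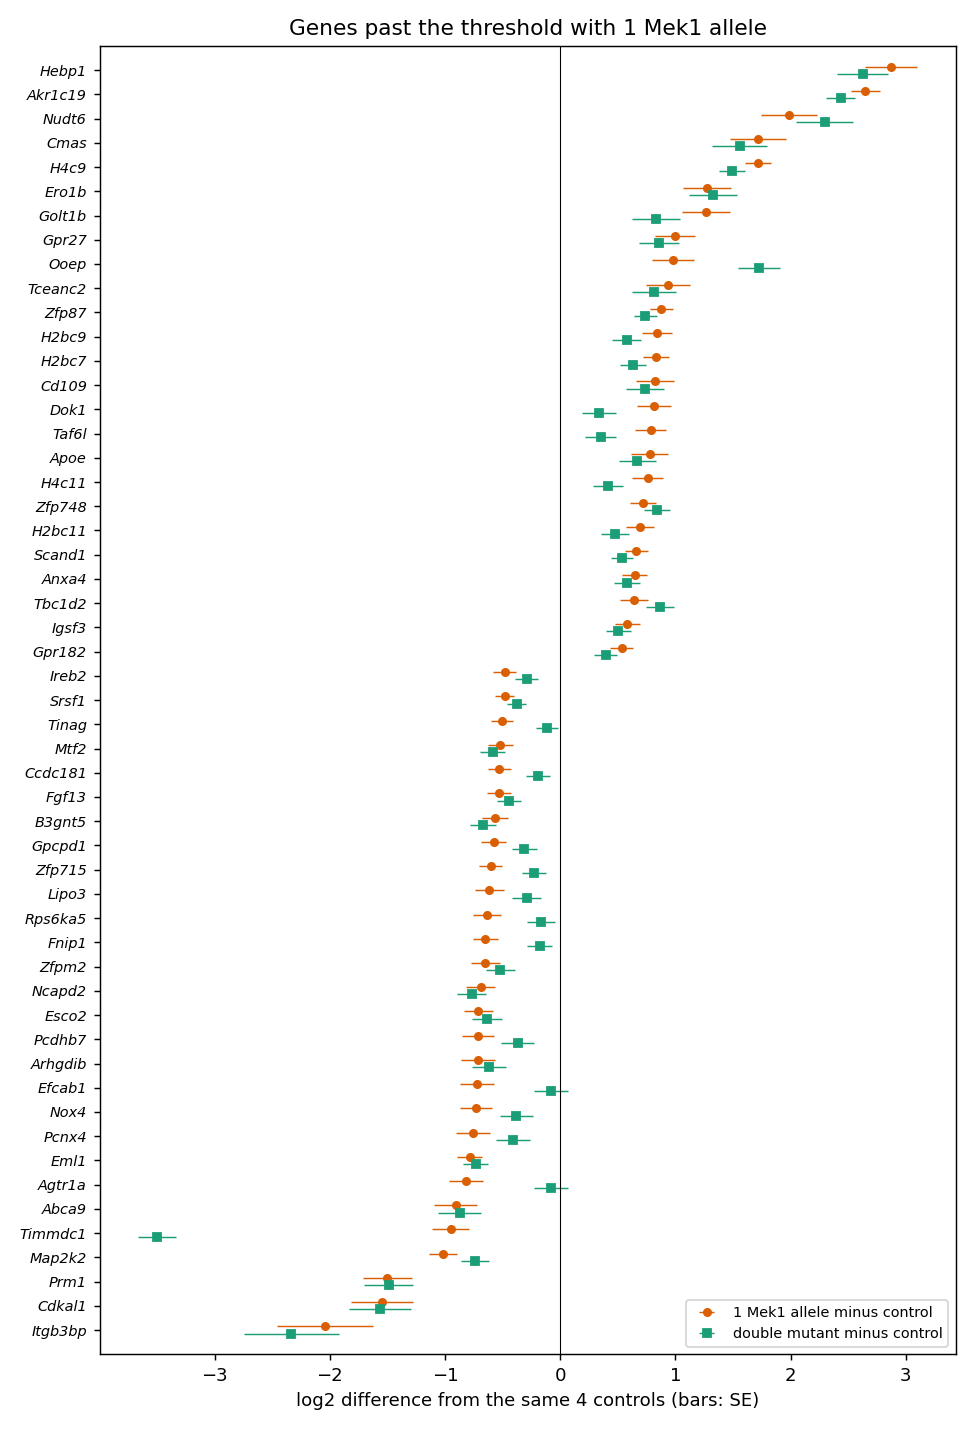
Log2 difference from the same 4 controls, with SE bars, for the 53 genes past the threshold with 1 Mek1 allele: orange circles are 1 Mek1 allele and green squares double mutants. Timmdc1 is at -0.95 and -3.50 and Ooep at 0.98 and 1.73; the 6 genes undetected in a whole group are drawn at fitted values, which are not measured differences.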

How the data were processed

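RNA of whole E15.5 lungs was hybridised to Illumina bead arrays, 4 arrays for each of 3 genotypes. The deposited scanner table gives each probe an intensity on a linear scale and a detection p-value for every array, per the file headers. The software behind it is not stated there. The authors also deposited normalized log2 values, which lay a median of 0.00386 from quantile-normalized log2 intensity without background correction. They served as an alternative.

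Intensities were corrected by normexp with the background estimated from the detection p-values (offset 16), put on the log2 scale and quantile normalized in limma 3.58.1 (R 4.3.3). Group means of all 12 arrays were fitted with lmFit and eBayes, with no covariate, on the probes detected at p under 0.01 on at least 4 arrays, and the probe with the highest mean stood for a gene. P-values are two-sided and adjusted by Benjamini-Hochberg over 8311 genes. The procedure was tested on simulated data. Symbols came from the platform annotation, which gave 23978 probes 1 symbol, 0 several and 1719 none; 23962 were found in RefSeq, and 0 changed. Only gene order and chromosome were taken from RefSeq for genes, since the files name no build.

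The rule for named genes took the 15 largest rises and 15 largest falls past the threshold with separate groups, Map2k1, Map2k2 and Twist2, list members past the threshold, the 3 members of a described list with the largest change, and the genes beside the 5 largest rises and falls. The remaining genes of the 53 were named after their values were seen. As an exception to the rule, 1 of the falls is not reported here. The comparison and the gene lists were chosen with earlier results of these data known, and the set of 41 histone genes after values were seen. Alternatives changed the background, scaling, filter, probe rule, variance model, covariates, threshold and arrays used.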

Additional observations from a re-analysis of the deposited data

Results flagged for a closer look

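Among the 53 genes past the threshold and Twist2, 108 groups of 4 values were searched for an array that stood far from the other 3, which chance gives in about 1 in 20 groups, and 9 were found. In controls, Gpr27 was 4.41 on replicate 1 against 4.82 to 4.86 on the others, Mtf2 was 8.82 on replicate 1 against 8.48 to 8.54, Anxa4 was 8.80 on replicate 2 against 8.52 to 8.56, and H2bc9 was 8.46 on replicate 3 against 8.86 to 8.92. With 1 Mek1 allele, replicate 1 stood apart for 4 genes. It gave Anxa4 at 9.54 against 9.13 to 9.18, Srsf1 at 12.63 against 12.76 on each of the others, Zfp715 at 7.20 against 6.98 to 7.01 and Rps6ka5 at 5.07 against 5.40 to 5.45. Igsf3 was 9.16 on replicate 2 against 9.50 to 9.54.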

How the results depend on the processing

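The 53 genes past the threshold became 226 without background correction, 121 with an offset of 50, 206 with the authors' deposited log2 values, 105 among probes detected on all 12 arrays, 224 with a trended and robust variance prior, 103 with array weights, 23 with the 8 compared arrays alone and 11 at an adjusted p under 0.01. Array brightness as a covariate gave 10, of which 6 were among the 53, and omission of the 2 brightest arrays gave 5, all among them. Single omissions gave 15 to 60. The cause of these changes was not tested. Replicate numbers did not pair the samples: same-numbered deviations correlated at 0.04, 0.16, -0.23 and -0.12, and no sample matched its own number best. With the replicate block 20 genes passed. All 53 genes kept their direction under the 30 alternatives and 0 results reversed, but only Hebp1, Akr1c19, H4c9 and Map2k2 passed under every one. For alternatives that only left out arrays, the direction of the 53 was fixed in advance by their separate groups. Of 5026 values of named genes, 522 lost the threshold and 66 gained it. Signal near background limits Nudt6, Golt1b, Gpr27, Prm1, Agtr1a and Pcdhb7 to bounds. A prior variance from the gene-level probes only, chosen after seeing the data, gave 61.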

Other observations

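Other signalling lists had no member past the threshold. Of 20 measured BMP and TGF-beta genes 11 were positive (median 0.07), and Id1, a target of BMP signalling, was at 0.45 ± 0.12 (limma adjusted p = 0.0984) with separate groups. Of 15 Wnt genes the median was 0.09, and the Wnt agonist Rspo2 was furthest at -0.74 ± 0.27 (limma adjusted p = 0.194). Of 5 Hedgehog genes 1 was positive, and Shh, Ptch1 and Hhip stood at -0.18, -0.15 and -0.21. Igfbp2, an IGF-binding protein, was at 0.36 ± 0.11 (limma adjusted p = 0.122), and the IGF list had a median of 0.06. Of 10 Hox genes 7 were positive, and Hoxb6, Hoxb2 and Hoxb4 stood at 0.38, 0.33 and 0.31.

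Of 17 cholesterol and fatty acid synthesis genes 0 passed, with a median of -0.07. The elongase Elovl6 was at -0.45 ± 0.10 (limma adjusted p = 0.0592) and Srebf2, which activates sterol synthesis, at 0.49 ± 0.13 (limma adjusted p = 0.0865), both with separate groups. Of 14 p53 targets and CDK inhibitors 0 passed, with Trp53inp1 at -0.56 ± 0.13 (limma adjusted p = 0.0669). Of 14 interferon response genes 0 passed, and Gbp3, Gbp2 and Ifit2 stood at -0.58, -0.55 and -0.49. Of 20 hypoxia and glycolysis genes 12 were positive (median 0.05), and of 7 mesothelial genes 2 were (median -0.04).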
